A study of Oryza sativa with 8 samples.

Results

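The late steps of chlorophyll synthesis were followed at 7 rice loci, namely CHLM (Os06g0132400), CRD1 (Os01g0279100), DVR (Os03g0351200), PORA (Os04g0678700), PORB (Os10g0496900), YGL1 (Os05g0349700) and CAO1 (Os10g0567400). They were chosen by locus ID, all 7 were among the 36850 rows of the count table, and all 7 passed the filter on low counts that left 20690 tested genes. RNA sequencing compared 4 libraries of mEmBP-OE-4 with 4 libraries of WT, all from Oryza sativa grown at one field station and sampled at heading, at about 10 in the morning, from the leaf next below the uppermost one. The mEmBP-OE-4 plants overexpress mEmBP-1a, a maize protein of the bZIP class of transcription factors, and WT is the wild type without it. The overexpression group is 1 transgenic line, its promoter is not given in the sources used here, and the transgene's own transcript was not analysed here.

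Chlorophyll a is built from magnesium protoporphyrin IX in the chloroplast. A methyltransferase (CHLM) prepares the ring system for the aerobic cyclase (CRD1 is its membrane subunit), which closes the fifth ring, divinyl reductase (DVR) reduces a vinyl side chain, and protochlorophyllide oxidoreductase (POR) makes chlorophyllide in a step driven by light. Chlorophyll synthase (YGL1) adds the isoprenoid tail, and chlorophyllide a oxygenase (CAO) makes the chlorophyll b that the light-harvesting antenna needs. In rice, PORA is known chiefly from dark-grown and young seedlings and PORB from leaves in the light.

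Libraries held 38308580 to 50800180 counts in mEmBP-OE-4 and 35627524 to 47643781 in WT. The members had 1603 to 143996 counts in a library, so that counting error was at most 2.498% (1 SD, at the lowest count of DVR). That was smaller than the spread between libraries in the scaled levels given below, but not at every locus on library totals alone. Levels are CPM, the count of a gene relative to its library's size after scaling by TMM, a trimmed mean of the differences between libraries. With that scaling the median log2 fold change of all tested genes was 0.00. The scaling factors differed between the groups, at 0.741 to 1.01 in mEmBP-OE-4 and 1.11 to 1.28 in WT, and with library totals alone that median was -0.47. Loci listed as leaf markers summed to 61857 to 108791 CPM in mEmBP-OE-4 and 50471 to 65616 CPM in WT. The largest part was Os11g0707000, which averaged 52679 CPM in mEmBP-OE-4 and 42774 CPM in WT. It was not called, with a log2 fold change of 0.30. Of these 6 leaf marker loci 5 were called higher, against 20.1% of all tested genes. The median log2 fold change of the 6 was 1.44, against 0.79 for the 7 members. The 6 are listed as photosynthesis genes, so their sum does not measure leaf content alone. Their part in the members' changes was not tested. Loci listed as floral and root markers summed to 0.200 to 0.413 CPM in mEmBP-OE-4 and 0.0507 to 0.109 CPM in WT, with none of the 5 abundant enough to test and 1 at 0 in all libraries. Nothing in the labels says whether the 4 libraries of a group came from separate plants, so the p-values measure differences against a spread that may be technical.

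Transcripts of CHLM, CRD1, DVR, PORB and YGL1 rose in mEmBP-OE-4 relative to WT, by 1.33-fold to 2.27-fold, although YGL1 did so by TMM scaling and turned slightly lower with library totals alone. The transcript of PORA, the other POR gene, was lower, being 2.22-fold higher in WT. CAO1 did not pass the test. Thus 5 of the 7 loci were called higher, against 20.1% of all tested genes, and 1 was called lower, against 19.1% (edgeR's quasi-likelihood test, adjusted p below 0.05 by Benjamini-Hochberg over all tested genes). On library totals alone 4 were called higher, against 8.47% of tested genes, and 1 lower, against 43.1%. On the TMM scale the groups did not overlap at 5 loci that were higher in mEmBP-OE-4 and 1 that was lower, against 18.8% and 19.7% of tested genes. On library totals YGL1 and CAO1 overlapped too. YGL1 then had 85.2 to 95.9 CPM in mEmBP-OE-4 against 80.7 to 100 in WT, and CAO1 847 to 1070 against 942 to 1078. Leaving out 1 library at a time, 4 to 6 were called higher, with 6 without mEmBP-OE-4 replicate 1. In whole leaves, fewer cells of a type and less RNA per cell cannot be told apart.

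**Figure D1:**
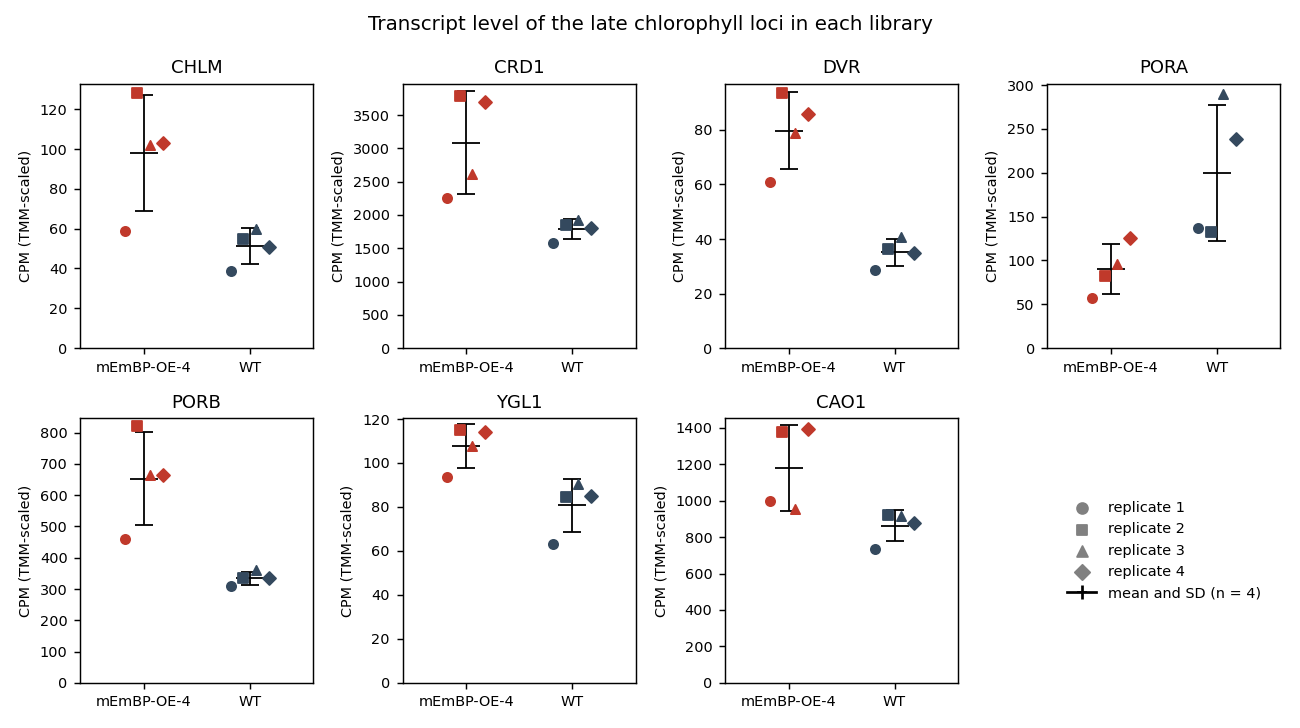
CPM on TMM-scaled library sizes of each of the 7 loci, with 1 point per library, marker shapes for replicates 1 to 4, and bars for the mean and SD (n = 4). The mEmBP-OE-4 libraries lie above all WT libraries for CRD1, DVR, PORB, YGL1 and CAO1 on this scale, below them for PORA, and overlap them for CHLM, where mEmBP-OE-4 replicate 1 had 58.7 CPM.

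CHLM, the methyltransferase that acts on magnesium protoporphyrin, had 58.7, 128, 102 and 103 CPM in mEmBP-OE-4 replicates 1 to 4, against 38.7, 55.0, 59.8 and 50.9 CPM in WT replicates 1 to 4. Replicate 1 of mEmBP-OE-4 lay just under the highest WT library, and the other mEmBP-OE-4 libraries lay well above WT. The log2 fold change was 0.94 (SE 0.23), a rise that passed the test with edgeR adjusted p = 0.00999. CHLM was called in each of the 8 fits that left out 1 library, at 0.77 to 1.10.

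CRD1, the cyclase subunit, had 2248, 3789.9, 2621 and 3694 CPM in mEmBP-OE-4 replicates 1 to 4, against 1578, 1844, 1927 and 1808 CPM in WT replicates 1 to 4. The groups did not overlap, and the mEmBP-OE-4 libraries divided into a lower pair, replicates 1 and 3, and a higher pair, replicates 2 and 4. The log2 fold change was 0.79 (SE 0.20, edgeR adjusted p = 0.0115). The coefficient of variation on the TMM scale was 24.97% in mEmBP-OE-4 and 8.35% in WT. On library totals the libraries lay closer together, at 2275 to 2835 CPM in mEmBP-OE-4 and 2021 to 2162 CPM in WT.

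DVR had the lowest p of the 7. The reductase had 60.7, 93.6, 78.9 and 85.7 CPM in mEmBP-OE-4 replicates 1 to 4, against 28.7, 36.4, 40.7 and 34.8 CPM in WT replicates 1 to 4. Even the lowest mEmBP-OE-4 library was well above the highest WT library. The log2 fold change was 1.18 (SE 0.16, edgeR adjusted p = 0.000511), which put DVR at percentile 90.3 of tested genes by fold change, so that larger rises were not rare in this line.

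The 2 POR genes went in opposite directions. PORB had 459.7, 820.1, 665 and 666 CPM in mEmBP-OE-4 replicates 1 to 4, against 308, 335, 359.8 and 335 CPM in WT replicates 1 to 4. All mEmBP-OE-4 libraries exceeded all WT libraries, and the coefficient of variation was 22.7% in mEmBP-OE-4 against 6.29% in WT. Its log2 fold change was 0.96 (SE 0.17, edgeR adjusted p = 0.00220).

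PORA had 56.7, 82.5, 95.7 and 126 CPM in mEmBP-OE-4 replicates 1 to 4, against 138, 133, 290.0 and 239 CPM in WT replicates 1 to 4. The groups did not overlap, but the highest mEmBP-OE-4 library came close to the lowest WT library, and WT itself divided into replicates 1 and 2 at the low end and replicates 3 and 4 at the high end. Within mEmBP-OE-4, too, replicates 3 and 4 had more PORA than replicates 1 and 2, and among the 7 loci PORA was the 1 with that order in both groups. The log2 fold change was -1.15 (SE 0.31, edgeR adjusted p = 0.0157), at percentile 8.22 of tested genes. PORA was called in each of the 8 fits that left out 1 library, at -1.36 to -0.92.

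Because both POR transcripts were counted in the same libraries, their ratio does not depend on how libraries are scaled. Counts were not divided by transcript length, so the ratio is no ratio of molecules, and only its difference between groups is read. There were 0.123, 0.101, 0.144 and 0.189 PORA counts per PORB count in mEmBP-OE-4 replicates 1 to 4, against 0.446, 0.397, 0.806 and 0.712 in WT replicates 1 to 4. Every mEmBP-OE-4 library was below every WT library. The log2 ratio was -2.88 ± 0.38 in mEmBP-OE-4 against -0.82 ± 0.50 in WT (mean ± SD over 4 libraries), a difference of -2.06 and a ratio 4.17-fold higher in WT (p = 0.0286 by a two-sided exact permutation test, which can go no lower with these group sizes, and 0.0857 after Benjamini-Hochberg adjustment over the 3 ratios tested, which misses the threshold). With same-numbered libraries paired, the ratio was lower in mEmBP-OE-4 in all 4 pairs, with p = 0.125 by an exact sign-flip test, which cannot go lower with 4 pairs. The 3 ratios and the loci in them were chosen with earlier results of these data known.

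**Figure D2:**
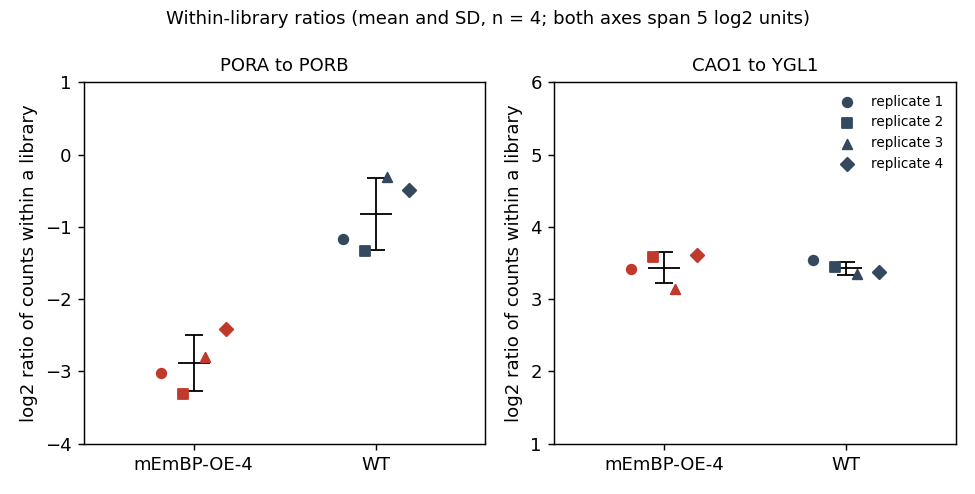
log2 ratio of counts within a library for PORA to PORB and for CAO1 to YGL1, with 1 point per library and bars for the mean and SD (n = 4), on axes of equal span. The PORA to PORB ratio lies between -3.31 and -2.41 in mEmBP-OE-4 and between -1.33 and -0.31 in WT, while the CAO1 to YGL1 ratios overlap.

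YGL1, chlorophyll synthase, had 93.8, 115, 108 and 114 CPM in mEmBP-OE-4 replicates 1 to 4, against 63.0, 84.4, 90.5 and 85.1 CPM in WT replicates 1 to 4. The lowest mEmBP-OE-4 library exceeded the highest WT library by a few CPM. The log2 fold change was 0.42 (SE 0.13, edgeR adjusted p = 0.0325), but it was -0.060 (edgeR adjusted p = 0.650) with library totals alone, and the call was kept in 2 of the 8 fits that left out 1 library, those without WT replicate 3 and without mEmBP-OE-4 replicate 1. The other 6 fits gave edgeR adjusted p values of up to 0.0909.

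CAO1, the oxygenase that makes chlorophyll b, had 998, 1376, 952 and 1394 CPM in mEmBP-OE-4 replicates 1 to 4, against 735, 919.8, 917 and 879.7 CPM in WT replicates 1 to 4. On the TMM scale the groups did not overlap, but replicates 1 and 3 of mEmBP-OE-4 were close to WT. The log2 fold change was 0.45 (SE 0.17) and missed the threshold with edgeR adjusted p = 0.0578. With the replicate number as a block it was 0.44 and was called (edgeR adjusted p = 0.0363), as it was with DESeq2 (adjusted p = 0.0167), with the filter of at least 5 CPM in 4 libraries, and without mEmBP-OE-4 replicate 1 or 3. On library totals alone it was -0.042 (edgeR adjusted p = 0.739).

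Os10g0567100, listed as a second CAO gene, precedes CAO1 in locus order with 2 rows between them. It had 4, 0, 1 and 2 counts in mEmBP-OE-4 replicates 1 to 4, against 7, 2, 2 and 4 in WT replicates 1 to 4, and was too low to test. Over the 8 libraries it totalled 22 counts, against 338016 for CAO1, so that nearly all counts given to the 2 loci were given to CAO1. The log2 ratio of CAO1 to this locus differed by 1.22 between mEmBP-OE-4 and WT (two-sided exact permutation p = 0.171, and 0.257 after Benjamini-Hochberg adjustment over the 3 ratios), a value that rests on those few counts and was 0.43 when 5 in place of 0.5 was added to each count.

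The ratio of CAO1 to YGL1 was close in the groups. There were 10.6, 11.96, 8.83 and 12.2 CAO1 counts per YGL1 count in mEmBP-OE-4 replicates 1 to 4, against 11.7, 10.9, 10.1 and 10.3 in WT replicates 1 to 4. The log2 ratio was 3.44 ± 0.21 in mEmBP-OE-4 against 3.42 ± 0.09 in WT (mean ± SD over 4 libraries), a difference of 0.01 that was smaller than the spread between libraries (two-sided exact permutation p = 0.886, with and without adjustment over the 3 ratios).

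In descending order, the log2 fold changes were 1.18 for DVR, 0.96 for PORB, 0.94 for CHLM, 0.79 for CRD1, 0.45 for CAO1, 0.42 for YGL1 and -1.15 for PORA. Neighbours in this order differed by less than the sum of their SEs, except YGL1 and PORA, but that sum takes no account of loci varying together. Counted within libraries, CRD1 stood further apart from CAO1, with a log2 ratio of 1.37 ± 0.14 in mEmBP-OE-4 against 1.05 ± 0.04 in WT (SD, n = 4) and no overlap. The ratio of DVR to PORB did not overlap either, at -3.02 ± 0.10 in mEmBP-OE-4 against -3.26 ± 0.12 in WT. Its nearest libraries were at -3.13 in mEmBP-OE-4 and -3.14 in WT. Among the 21 possible pairs of members, the within-library ratio did not overlap between the groups in 13, against 51.2% for ratios of a member to each other tested gene, so this count alone is close to the background. All 6 pairs with PORA were among them, and 7 of the 15 pairs without it. The background pools all 7 members and was not computed for PORA alone, so these 2 counts have no background of their own. The pairs share loci and are not independent. The log2 ratio of DVR to YGL1, as an example, was -0.45 ± 0.14 in mEmBP-OE-4 against -1.20 ± 0.07 in WT (SD, n = 4), a difference of 0.75 without overlap. That of PORB to YGL1 was 2.57 ± 0.22 in mEmBP-OE-4 and 2.06 ± 0.15 in WT, a difference of 0.51 with the nearest libraries at 2.293 in mEmBP-OE-4 and 2.290 in WT.

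Scaling libraries by their totals moves all genes down by about the same amount, so it leaves the order of the members as it was. DVR then had a log2 fold change of 0.69, PORB of 0.46, CHLM of 0.44 and CRD1 of 0.28, all smaller than with TMM, and these 4 were still called higher in mEmBP-OE-4. Relative to the median of all tested genes on that scale they stood at 1.16, 0.93, 0.91 and 0.75. CAO1 and YGL1 stood at 0.43 and 0.41 relative to it and were not called, and PORA at -1.16. PORA's own log2 fold change with library totals was -1.64 (SE 0.26, edgeR adjusted p = 0.00100).

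**Figure D3:**
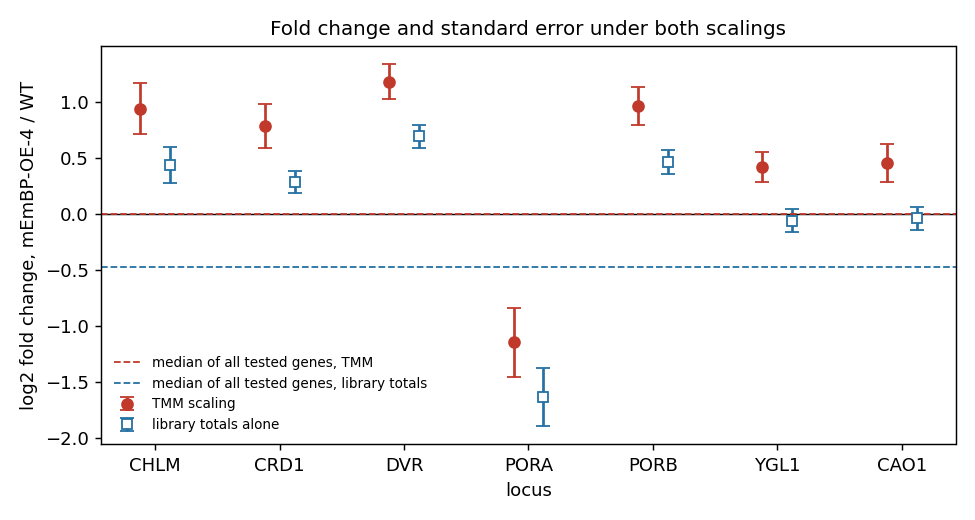
log2 fold change of mEmBP-OE-4 over WT for each locus with its SE, for TMM scaling (filled circles) and for library totals alone (open squares), with dashed lines at the median of all tested genes under each. All 7 loci shift down together with library totals, YGL1 to -0.060 and CAO1 to -0.042, and PORA is below 0 under both.

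Replicate 1 was the low library for most of the members in both groups. On the TMM scale it was the lowest of its group at 6 of the 7 loci in mEmBP-OE-4 and at 6 of the 7 in WT, and on library totals at 5 in mEmBP-OE-4 and 5 in WT. These libraries also had the highest TMM factors of their groups, 1.01 in mEmBP-OE-4 and 1.28 in WT, and their part in the members' values was not tested. Without mEmBP-OE-4 replicate 1 the log2 fold changes were larger for the loci that rose, for example 1.10 for CHLM and 1.08 for PORB, and -0.996 for PORA.

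Taken as a share of all counts, the 7 members held 0.402%, 0.475%, 0.411% and 0.474% in mEmBP-OE-4 replicates 1 to 4, against 0.370%, 0.399%, 0.408% and 0.402% in WT replicates 1 to 4. The shares overlapped, mEmBP-OE-4 replicate 1 being below WT replicate 3. CRD1 and CAO1 made up 77.3% to 82.3% of these counts in mEmBP-OE-4 and 77.2% to 81.1% in WT, so the share mostly follows them.

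The steps before CHLM lead from glutamyl-tRNA to magnesium protoporphyrin. Of 12 loci listed for them, all tested, 5 rose, against 20.1% of all tested genes, 2 fell, against 19.1%, and 5 were not called. Their median log2 fold change was 0.20, against 0.79 for the 7 members and 0.00 for all tested genes. On library totals alone 4 rose, against 8.47% of all tested genes, and 5 fell, against 43.1%, which is close to that background. Of the uncalled loci, 2 were low, averaging 5.20 CPM each in mEmBP-OE-4, against 4.16 and 5.23 CPM in WT, and whether their IDs belong on the list was not checked. The locus of lowest p on the list, Os03g0563300, averaged 376 ± 94.3 CPM in mEmBP-OE-4, against 147 ± 12.3 CPM in WT (SD, n = 4), with log2 fold change 1.36 (SE 0.18, edgeR adjusted p = 0.000506). The 2 next by p, Os11g0267000 and Os03g0323200, rose as well, with log2 fold changes of 0.97 and 1.01 (edgeR adjusted p = 0.000655 and 0.000964). The 2 that fell, Os01g0622300 and Os04g0610800, had log2 fold changes of -0.43 and -0.39, and they were singled out after their values were seen. They averaged 9.22 ± 1.32 and 58.3 ± 6.61 CPM in mEmBP-OE-4, against 12.4 ± 0.570 and 76.4 ± 3.92 CPM in WT (SD, n = 4). Without WT replicate 4, 1 locus of the list was called lower.

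A further 5 loci were listed for the supply of the isoprenoid tail, the second CAO gene and the enzymes that turn chlorophyll b back into a. Of the 4 tested, 2 rose, against 20.1% of all tested genes, and none fell, against 19.1%, with a median log2 fold change of 0.59. On library totals alone 1 rose, against 8.47%, and 1 fell, against 43.1%. The locus of lowest p, Os01g0227100, averaged 70.6 ± 3.15 CPM in mEmBP-OE-4, against 40.0 ± 1.67 CPM in WT (SD, n = 4), with groups far apart and a log2 fold change of 0.82 (SE 0.09, edgeR adjusted p = 0.000153). Membership of these lists rests on recalled locus IDs.

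**Figure D4:**
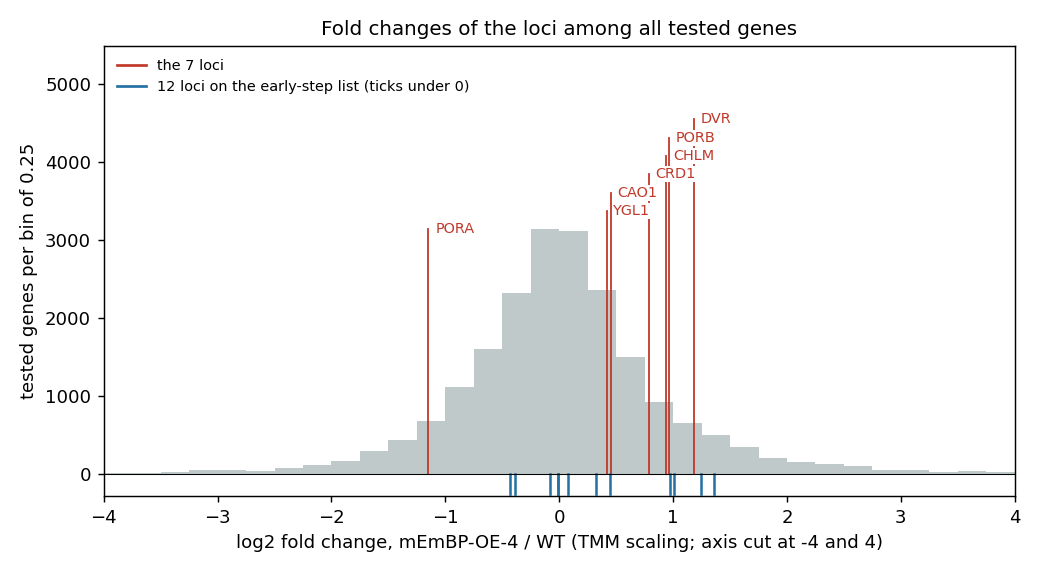
Number of tested genes per bin of log2 fold change of mEmBP-OE-4 over WT (TMM scaling), with red lines at the 7 loci and blue ticks under the axis at the 12 loci listed for the earlier steps. PORA lies in the left flank at -1.15. CAO1 and YGL1 lie to the right of the centre at 0.45 and 0.42, and the other 4 loci further right between 0.79 and 1.18.

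By position, the loci lie on chromosomes 1, 3, 4, 5, 6 and 10 by their IDs, with PORB and CAO1 both on chromosome 10. Of the 20 tested loci nearest to each in locus order, 25% to 50% were called, against 39.2% of all tested genes. PORA had 4 higher and 1 lower among its 20.

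The gene most like each member over the 8 libraries, by Pearson correlation of log2 CPM and with the members themselves left out, reached r = 0.980 for PORA and 0.994 to 0.999 for the others. These values include the difference between the groups and are the best over all tested genes. The closest were Os08g0114100 to CRD1 and Os02g0750100 to DVR. Os08g0114100 averaged 1170.3 CPM in mEmBP-OE-4 and 662 CPM in WT, and Os02g0750100 averaged 1166 CPM in mEmBP-OE-4 and 387 CPM in WT.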

How the data were processed

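The authors deposited 1 table of raw read counts per gene, with a column for each library. The submitters' processing notes name the genome build IRGSP-1.0 and the tools STAR 2.5.3a, Trim Galore, FastQC and DESeq2, without saying what each was used for. How reads were assigned to genes, with which annotation and with what regard to strand, is not given in the sources used here, so overlapping or near-identical genes carry an unknown error. The files name no genes. Member names came with the list of locus IDs and were not checked against an annotation of those IDs, though 4 of the names (CAO1 as CAO) occur in the RefSeq gene table for ASM3414082v1 on the same chromosome. No sequences were used here. The members and lists were chosen with earlier results of these data known.

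Counts were filtered with filterByExpr (minimum count 10, total 15), scaled by TMM and tested on all 8 libraries in 1 model of group alone (quasi-likelihood F test, edgeR 4.0.16 under R 4.3.3), adjusted by Benjamini-Hochberg and called below 0.05. The SE of a log2 fold change is its size over the square root of F. Ratios used log2 of counts plus 0.5 and exact permutation over 70 assignments. The procedure was also run on simulated counts with the same dispersion for every gene, few changed genes and no replicate effect. Those settings differ from these data, so that run does not vouch for the scaling or the calls here. All 7 members, the second CAO locus and the loci of lowest p on the other lists were to be named. Alternatives included DESeq2 1.42.0, limma-voom 3.58.1, other scalings and filters, a replicate block and leaving out each library. Same-numbered libraries deviated together from their group means (correlations across genes of 0.676, 0.397, 0.189 and 0.154). Libraries of unlike number were not compared in this way, so whether the numbers pair the samples is not settled. The main model took no account of the numbers, and the replicate block was run as an alternative. Every 2 replicates of a group differed by more than counting error (chi-square of at least 6.52 for each degree of freedom). Rows with IDs of other kinds than Os loci numbered 1183 and were kept.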

Additional observations from a re-analysis of the deposited data

How the results depend on the processing

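CHLM, CRD1, DVR, PORB and PORA kept their direction and call in all 16 alternatives tried for each. Of 279 values under alternatives, 251 were labelled as the same. For fold changes and ratios that meant the same direction and side of the threshold. For ratios the p was taken before adjustment over the ratios tested. For counts it meant a change within 1.5-fold. For the members' share it meant a shift smaller than the SD between libraries. With library totals alone YGL1 was at -0.060 and CAO1 at -0.042, 1752 genes were called higher and 8912 lower, 5 early-step loci fell, and on the tail and chlorophyll b list 1 rose and 1 fell. Without a filter YGL1 was at 0.39 (edgeR adjusted p = 0.0503) and not called. CAO1 was called at 0.42 with at least 5 CPM in 4 libraries and at 0.46 with DESeq2. That filter left 2602 genes called higher and 2618 lower, from 12157 tested in place of 20690. With the replicate block CAO1 was called at 0.44 and the PORA to PORB difference of -2.06 had an exact p of 0.125; the block changed no other member's call. Leaving out 1 library at a time gave 0.31 to 0.47 for YGL1 (edgeR adjusted p of 0.0264 to 0.0909). It gave 0.35 to 0.54 for CAO1 (edgeR adjusted p of 0.0324 to 0.149) and 1 to 2 early-step loci lower. The CAO1 to YGL1 ratio gave -0.047 to 0.11, and CAO1 to the second CAO locus gave 0.65 to 1.73. The 1.73 came without mEmBP-OE-4 replicate 1, with an exact permutation p of 0.0286. That p was not adjusted over the ratios tested, and the ratio rests on few counts. The cause of the differences between alternatives was not tested. Depth limits the second CAO locus alone among those named.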
